A study of Prunus sibirica with 6 samples.

Results

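The genes described here form 1 stretch of consecutive identifiers among the gene models of Prunus sibirica, the Siberian apricot. They carry identifiers of the form PaF106G02 followed by 8 digits, and the stretch takes the running numbers 7147 to 7863 of identifier group 02. Of these 717 numbers, 712 have a row in the deposited table, which lists 34055 genes in all, 4117 of them in group 02. Group 02 runs from number 6758 to number 10891, so the stretch lies in its first part. Expression was measured by RNA sequencing of whole flower buds from 2 clones, with 3 libraries each. Clone 595, the treatment group, has abortive pistils, and clone 28, the control group, has normal pistils. Each group is a single clone, so clone and pistil type cannot be told apart, and no age, date or further treatment is given. Whether the libraries of a clone came from separate trees is not stated, and any test then measures only the spread between libraries.

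The stretch was chosen by measured values, the number of large differences between these same clones in windows of identifiers. Its differences between clones are therefore given as a description, with no test of the stretch against other genes and no p-value for any member. The identifiers carry no gene name or product in the deposited table, and no annotation was used here, so members are called by running number and no function can be given. Member 7544, for example, is PaF106G0200007544.01. That the numbers follow the order of genes along a chromosome is an assumption that the table does not state.

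As background, genotypes of an outcrossing tree such as the wild apricot differ from one another along their chromosomes. Blocks of neighbouring genes can be inherited together as a haplotype, and blocks may hold genes that are present in some genotypes and missing in others, as well as arrays of related copies. An expression value made against 1 reference sequence also depends on how closely a clone matches that reference. A flower whose pistil stops growing in the bud cannot set fruit, which is why clones with abortive and with normal pistils are compared. None of these causes was tested here.

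Many members were listed at 0 in the bud. Of the 712 members, 205 (28.8%) had 0 in all 6 libraries, against 558 of the 3405 remaining identifiers of group 02 (16.4%). A mean of at least 1 FPKM (fragments per kilobase of transcript scaled to the mapped fragments of the library) over the 6 libraries was reached by 300 members (42.1%) and by 1953 of the rest (57.4%). These 300 members are the ones tested below, and the other 207 were above 0 in at least 1 library without reaching that mean. Tested members were also less strongly expressed, the median being 7.47 FPKM and quartiles of 2.62 and 18.6, against a median of 12 and quartiles of 4.18 and 29.6 FPKM in the rest of the group. The 389 identifiers before the stretch, numbers 6758 to 7146, had a similar median of 8.1 FPKM in their tested genes. The level was not itself used to choose the stretch, but large changes were. These came mostly at low levels in the rest of the group too, so the level is not independent of the choice. Members at 0 throughout were unevenly spread. Between numbers 7147 and 7196 they were only 8 of 50. They were 25 of 50 between 7547 and 7596, 24 of 50 between 7647 and 7696 and 27 of 50 between 7697 and 7746. The 385 identifiers that follow the stretch, numbers 7864 to 8252, were much the same in this respect, with 30.1% at 0 in every library.

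In all, the members made up a small share of the bud transcriptome. Summed FPKM over the stretch came to 5966, 6041 and 6197 in clone 595 and to 6921, 6675 and 7036 in clone 28, which is 0.953% to 0.977% and 1.07% to 1.11% of the library sums. The sums did not overlap, and the mean of 6877 ± 184 (SD, n = 3) in clone 28 was above that of 6068 ± 118 (SD, n = 3) in clone 595. Most of the difference of 809 FPKM lay in the 5 most abundant members, without which it was 236 FPKM, an alternative chosen after seeing the data. Whole buds were ground, so fewer cells of a type and less RNA per cell cannot be told apart in any of these values.

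The most abundant member, number 7183, was at 465, 457 and 397 FPKM in clone 595 and at 822, 607 and 835 FPKM in clone 28. Its groups did not overlap, although library 2 of clone 28 was well below the others of its clone, and its log2 change was -0.77 (standard error 0.13). A log2 change is given as clone 595 minus clone 28, with its standard error, for values of log2(FPKM + 1), a scale that understates how much low genes differ; fold thresholds use the same scale. Member 7773 was next, with 304 ± 13.6 FPKM (SD, n = 3) in clone 595 and 364 ± 32.7 FPKM (SD, n = 3) in clone 28. Member 7792 had 234 ± 12.3 and 279 ± 9.53 FPKM (SD, n = 3 each), in the same order. Member 7241, at 226 ± 3.66 and 254 ± 13.2 FPKM (SD, n = 3 each), was not called. Member 7260 was at 162, 166 and 192 FPKM in clone 595 and at 314, 268 and 315 FPKM in clone 28, with log2 change -0.78 (standard error 0.09). All 5 of the most abundant members were thus lower in every library of clone 595 than in any of clone 28, by less than 2-fold. The calls of the less different ones depended on the settings. After median log ratio scaling members 7773 and 7792 were no longer called, each with log2 change -0.18. Member 7773 also lost its call without library 1 or 2 of clone 595 or library 2 or 3 of clone 28, at -0.24 to -0.19, and member 7792 lost it without library 2 of clone 595, at -0.24. Among the alternatives tried, member 7241 was called only without library 1 of clone 28, at -0.21.

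Large differences between the clones were frequent among the tested members. In the limma fit over all 18904 tested genes of the table, a gene was called at a Benjamini-Hochberg adjusted p under 0.05, and 150 of the 300 tested members (50%) were called, against 44.0% of all tested genes and 43.6% of the rest of group 02. Called members numbered 54 higher in clone 595, or 18% against 17.6% of all genes, and 96 lower, or 32.0% against 26.4%. Changes of at least 2-fold were called in 53 members (17.7%), where the share was 7.24% over all tested genes and 6.45%, or 126 of 1953, in the rest of the group. Of the 53, 23 were higher (7.67%, against 3.33% over all genes) and 30 were lower (10%, against 3.91%). At least 4-fold changes were called in 12 members (4%, against 1.58%), 5 of them higher and 7 lower. Nothing is read from these counts, since this contrast chose the stretch. Calls under 2-fold made 32.3% of the tested members and 37.1% of the rest of the group.

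The clones had no overlap between their libraries in 189 tested members (63.0%), where the share was 54.8% over all tested genes and 53.7% in the rest of group 02. The median absolute log2 change was 0.32 in the stretch and 0.25 in the rest, and the upper quartile was 0.77 against 0.47. At the other end, 48 members (16.0%) had a log2 change between -0.1 and 0.1, as did 22.2% of the rest. Without rescaling, 64.0% of the called members were lower in clone 595, near the 59.3% in the rest of the group and the 60% over all genes. After median log ratio scaling of the libraries the shares were 54.2%, 48.6% and 49.7%, in the same order. The 389 identifiers just before the stretch, numbers 6758 to 7146, were much the same in several of these measures. Of their tested genes 53% were called (19% higher, 34% lower), and 62.5% had no overlap between clones. Their median absolute log2 change was 0.32, with an upper quartile of 0.60. The stretch held steady and strongly different members side by side.

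**Figure D1:**
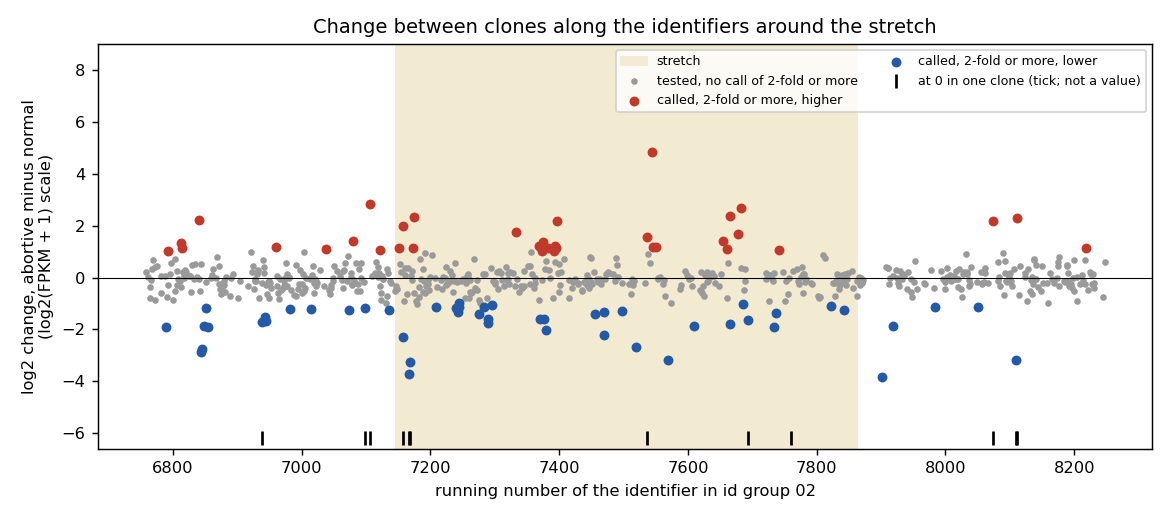
Log2 change (abortive minus normal pistil, log2(FPKM + 1) scale) of each tested identifier against its running number in group 02, from the start of the group to number 8252. The stretch is shaded, coloured points are calls of at least 2-fold, and ticks at the bottom mark the genes listed at 0 in one clone. Within the shading 23 points are higher and 30 are lower, among many grey points near 0.

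Large changes were found among the members with low and middle means over the libraries of both clones. Among tested members averaging 1 to 5 FPKM, 31 of 121 (25.6%) had a large change, meaning a call of at least 2-fold, against 11.9% of such genes in the rest of the group. Between 5 and 20 FPKM there were 20 of 110 (18.2%), against 5.49%. Between 20 and 100 FPKM there were 2 of 56 (3.57%), against 3.14%, and none of the 13 members with 100 FPKM or more changed that much, where 3 of 126 did in the rest. In the rest of the group, too, large changes came mostly at low levels. These shares rest on the contrast that chose the stretch and are a description. Among the 13 members with 100 FPKM or more, 2 were called higher and 8 lower, while 32 and 27 were in the rest of the group. Over all tested genes, at any level, 17.6% were called higher and 26.4% lower. The 8 include members 7773 and 7792, whose calls were lost after median log ratio scaling, so nothing is read from these counts.

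**Figure D2:**
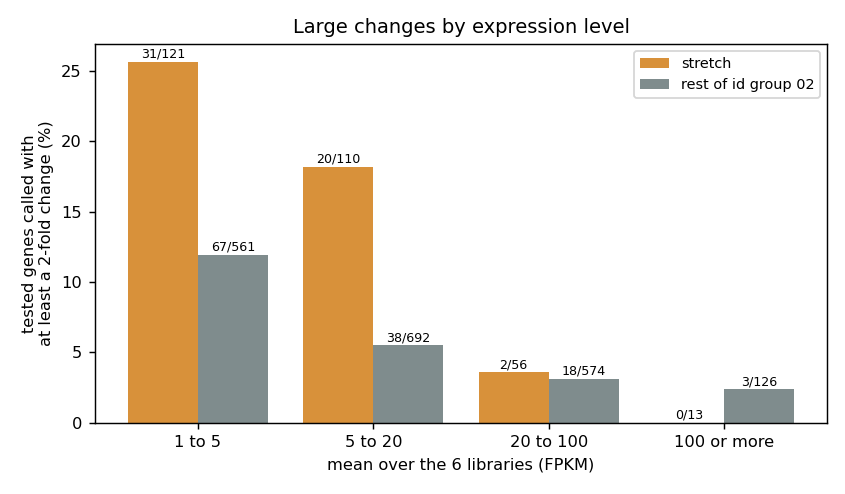
Share of tested genes with a call of at least 2-fold, by mean FPKM over the 6 libraries, for the stretch and for the rest of group 02. Numbers over the bars give the large changes and the tested genes. The bars differ below 20 FPKM, where 22.1% of the members and 8.38% of the rest changed at least 2-fold, and are alike from 20 to 100 FPKM.

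Large changes were not spread evenly along the stretch. In 15 bins of 50 running numbers, the last of them shorter, the most were in 7347 to 7396, with 11 of 27 tested members, and in 7647 to 7696, with 8 of 16. Which bin held the most depended on the choices: in bins of 100 running numbers it was 7147 to 7246, with 12 of 61, and for changes of at least 4-fold it was 7147 to 7196, with 4, where 7347 to 7396 had 2. No large change lay in the bins 7397 to 7446, 7747 to 7796 and 7847 to 7863. The longest gap between large changes ran from member 7742 to member 7822 and held 23 tested members, with log2 changes from -0.90 to 0.89. Another, from 7396 to 7456, held 26 tested members between -0.79 and 0.80.

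**Figure D3:**
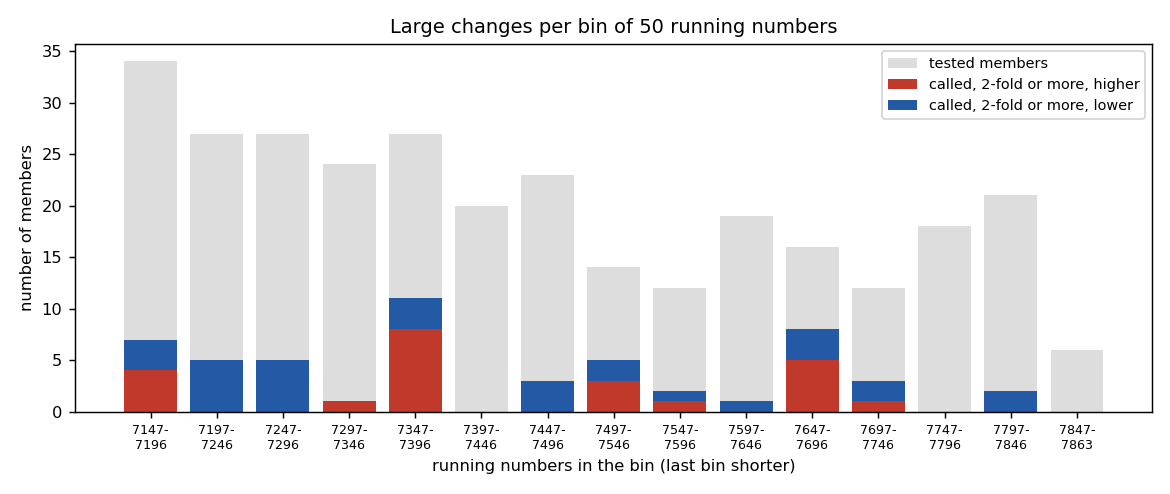
Tested members (grey bars, full height) and members with a call of at least 2-fold (red, higher in clone 595; blue, lower) in each bin of 50 running numbers. Bins 7347 to 7396 and 7647 to 7696 hold the most, 11 and 8, and 3 bins hold none.

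Direction changed many times along the stretch, also within some patches. Taken in order, the 53 large changes fall into 18 successions of one direction, and 35 of the 52 successive pairs had the same direction. No matching counts were taken in the rest of group 02, so nothing is read from these. The longest succession was of 10 members between 7209 and 7295, all lower in clone 595; 14 further members there were called lower by less than 2-fold and 5 were called higher. Short successions of 1 or 2 members, in both directions by turns, came next, from 7333 to 7380. Between 7383 and 7396, 5 members were higher, and between 7456 and 7519, 5 members were lower. Then 4 members between 7537 and 7550 were higher. These bounds were set after the values were seen, and no test belongs to them. Of the 53 members, 30 lay within 5 running numbers of the next one, and the median distance was 5.

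The first patch opens at member 7152, the first large change inside the stretch, which was at 9.03 ± 1.60 FPKM (SD, n = 3) in clone 595 and 3.55 ± 0.550 FPKM (SD, n = 3) in clone 28. Close by, members 7157 and 7158 carry adjacent numbers and differed in opposite directions. Member 7157 was at 2.74, 3.21 and 2.94 FPKM in clone 595 and was listed at 0 in all 3 libraries of clone 28. Member 7158 was at 0.569, 1.06 and 0.888 FPKM in clone 595 and at 6.39, 7.26 and 10.7 FPKM in clone 28, with log2 change -2.29 (standard error 0.19). Neither pair of groups overlapped.

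Members 7167 and 7169 were the most lowered of the stretch. Member 7167 (PaF106G0200007167.01) was listed at 0 in all 3 libraries of clone 595 and was at 14.6, 11.8 and 10.4 FPKM in clone 28 (12.3 ± 2.13, SD, n = 3). Member 7169 (PaF106G0200007169.01) was likewise listed at 0 in clone 595 and was at 8.30, 9.53 and 7.86 FPKM in the other (8.56 ± 0.866, SD, n = 3). No tested member lies between them. No fold is given for either, because the table holds no counts and an exact 0 can be a failed estimate. A few numbers on, member 7174 went the other way, with 9.99, 8.95 and 9.01 FPKM in clone 595 and 1.36, 1.37 and 0.569 FPKM in clone 28. The log2 change was 2.32 (standard error 0.17).

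The second patch, from 7209 to 7295, held graded differences. Members 7243, 7244 and 7245 formed a run of 3 tested identifiers in a row. Member 7243 was at 0.968 ± 0.0854 FPKM in clone 595 and 3.99 ± 0.191 FPKM in clone 28 (SD, n = 3 each). Member 7244 was at 3.61 ± 0.545 and 8.20 ± 0.479 FPKM (SD, n = 3 each), with log2 change -1.0, right at the 2-fold threshold. Member 7245 was at 1.71, 0.834 and 0.753 against 3.66, 2.39 and 4.92 FPKM, so its libraries varied most within clones but did not overlap. Further on, members 7289 and 7290, with adjacent numbers and named after their values were seen, differed more. Member 7289 was at 0.877 ± 0.0676 FPKM in clone 595 and 5.37 ± 0.310 FPKM in clone 28 (SD, n = 3 each), with log2 change -1.76 (standard error 0.12). Member 7290 was at 0, 0.357 and 0.186 against 2.51, 2.48 and 2.78 FPKM, with log2 change -1.61 (standard error 0.15). The very abundant member 7260, called lower in clone 595, and member 7241, not called, lie within this patch.

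Member 7333 stood alone between patches. It was at 38.1, 42.6 and 40.7 FPKM in clone 595 and at 10.4, 11.5 and 11.5 FPKM in clone 28, one of the most strongly expressed members with a large change. The log2 change was 1.77 (standard error 0.08), and the libraries of each clone lay close together.

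In the patch from 7368 to 7396 most large changes were higher in clone 595, 8 of the 11 in its bin. Member 7368 was at 10.4 ± 1.45 FPKM in clone 595 and 3.92 ± 0.300 FPKM in clone 28 (SD, n = 3 each), and member 7375 at 9.19 ± 0.850 and 2.91 ± 0.519 FPKM (SD, n = 3 each). Member 7380 was lower instead, at 0.807, 1.69 and 1.13 FPKM against 7.77, 7.49 and 8.22 FPKM, with log2 change -2.02 (standard error 0.16). The patch closed with a run of 3 members. Of these, 7394 was at 2.87 ± 0.724 against 0.666 ± 0.361 FPKM and 7395 at 5.31 ± 0.452 against 1.89 ± 0.439 FPKM (SD, n = 3 each). The third, member 7396, was at 7.84, 0 and 9.29 FPKM in clone 595 and listed at 0 in clone 28. It was the only large change whose libraries overlapped between clones, because library 2 of clone 595 was at 0. Its call was lost when any one of the other 5 libraries was left out, with log2 changes of 1.57 to 2.17.

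Further along, members lower in clone 595 came first. Member 7470 was at 1.73 ± 0.429 FPKM in clone 595 and 11.7 ± 1.09 FPKM in clone 28 (SD, n = 3 each). Member 7519 was at 0.159, 0.596 and 0.877 FPKM against 9.0, 7.75 and 9.20 FPKM, with log2 change -2.67 (standard error 0.18). The values of clone 595 were all under 1 FPKM and those of clone 28 all above 7 FPKM.

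Member 7544 (PaF106G0200007544.01) had the highest log2 change of the stretch, 4.82 (standard error 0.11). It was at 36.5, 31.7 and 33.9 FPKM in clone 595 (34.0 ± 2.41, SD, n = 3) and at 0.179, 0.211 and 0.326 FPKM in clone 28 (0.239 ± 0.0776, SD, n = 3). It was near absent in one clone and among the well expressed members in the other. The next tested members were also higher in clone 595, at much lower levels: member 7545 was at 2.35 ± 0.873 against 0.468 ± 0.233 FPKM and member 7550 at 3.23 ± 0.361 against 0.882 ± 0.482 FPKM (SD, n = 3 each). Just before them, member 7536 was at 1.35, 1.68 and 1.42 FPKM in clone 595 and listed at 0 in every library of clone 28. Its mean over the 6 libraries was under 1 FPKM, so it was not tested.

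Member 7569 lay apart from its neighbours. It was at 0.836, 0.513 and 0.770 FPKM in clone 595 and at 11.7, 16.6 and 15.7 FPKM in clone 28, with log2 change -3.19 (standard error 0.15). Member 7609 was lower too, at 2.40 ± 0.576 against 11.3 ± 1.59 FPKM (SD, n = 3 each). These were the only large changes between 7551 and 7654.

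In the patch from 7655 to 7693 both directions were mixed. Member 7682 (PaF106G0200007682.01) was at 17.6, 16.8 and 18.7 FPKM in clone 595 (17.7 ± 0.930, SD, n = 3) and at 2.02, 1.97 and 1.78 FPKM in clone 28 (1.92 ± 0.126, SD, n = 3). The log2 change was 2.68 (standard error 0.10), the second highest of the stretch. Members 7665 and 7666, with adjacent numbers, differed in opposite directions. Member 7665 was at 14.4, 18.5 and 21.7 FPKM in clone 595 and at 2.56, 3.03 and 2.54 FPKM in clone 28. Member 7666 was at 1.45, 1.67 and 1.74 FPKM in clone 595 and at 7.57, 7.66 and 9.29 FPKM in clone 28. In neither member did the groups overlap. Members 7655 and 7678 were also higher in clone 595, at 12.2 ± 0.603 against 3.97 ± 0.382 FPKM and at 5.15 ± 0.645 against 0.898 ± 0.109 FPKM (SD, n = 3 each). Member 7693 was listed at 0 in clone 595 and was at 2.10, 2.29 and 1.92 FPKM in the other.

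Large changes thinned out towards the end of the stretch. Member 7733 was at 1.36 ± 0.132 FPKM in clone 595 and 7.76 ± 0.292 FPKM in clone 28 (SD, n = 3 each). Member 7760, listed at 0 in clone 595, was at 1.04, 1.60 and 1.22 FPKM in clone 28 and had too low a mean to be tested. The last large change was member 7843, at 3.24, 5.30 and 3.90 FPKM against 10.7, 13.0 and 9.82 FPKM.

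**Figure D4:**
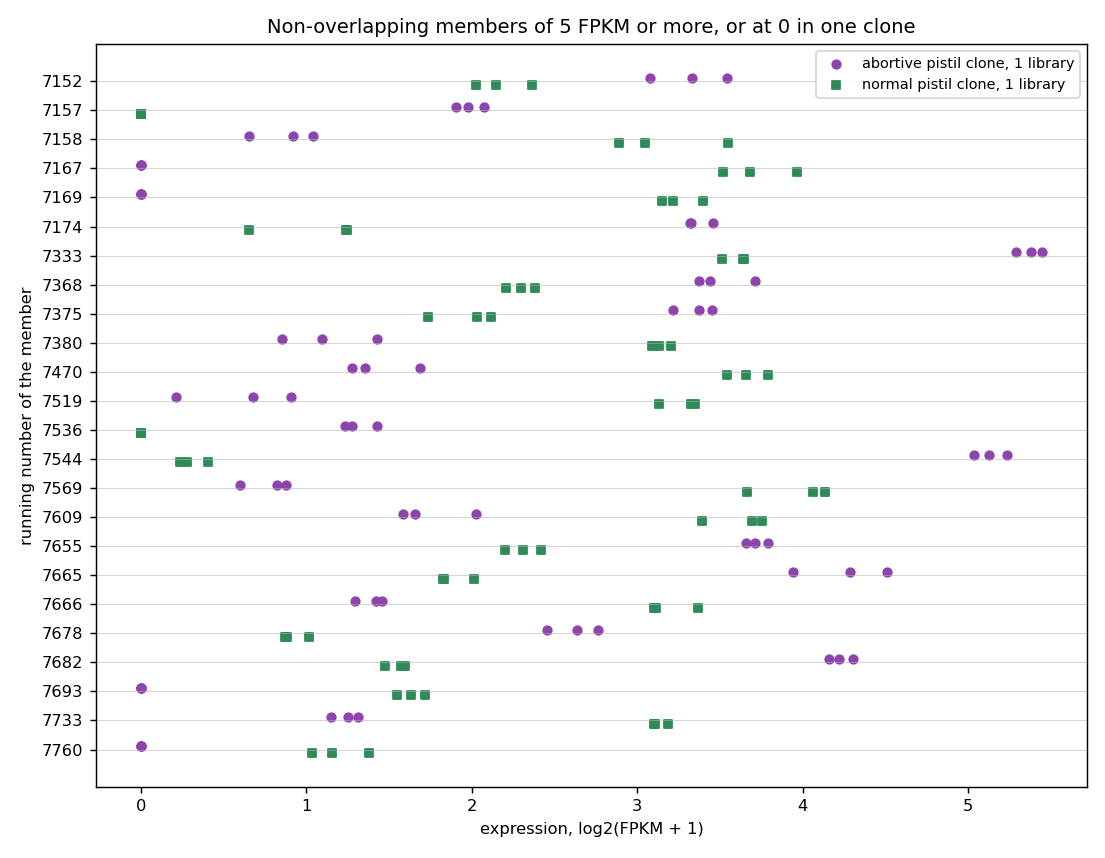
Expression of each library, as log2(FPKM + 1), for the 10 most raised and 10 most lowered of the called members that reached 5 FPKM in the higher clone and did not overlap between clones, and for members listed at 0 in one clone, in order of running number. Circles are abortive and squares normal pistil libraries. Separation of the clones was a condition for being shown, and member 7396, whose libraries overlap, is therefore missing. Most rows keep at least some expression in the lower clone.

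Altogether 6 members were listed at 0 in every library of one clone and at 1 FPKM or more in every library of the other. These made 2.01% of the 298 members for which all libraries of a clone reached 1 FPKM, against 0.782% of such genes in the table and 0.664% in the rest of group 02. The nearest identifiers had similar shares, 1.48% (3 of 203) in the 389 before the stretch and 1.88% (3 of 160) in the 385 after it. Members 7167, 7169, 7693 and 7760 were at 0 in clone 595 and members 7157 and 7536 in clone 28. Members 7157, 7167 and 7169 lie within the first bin, and the others lie singly in the bins of 7536, 7693 and 7760. Only 7167 and 7169 reached 5 FPKM in each library of the other clone. Most of the 53 large changes were graded, however. In the lower clone the mean was under 0.1 FPKM in 7, 0.1 to 1 FPKM in 18 and at least 1 FPKM in 28. The filter and the log2(FPKM + 1) scale leave weakly expressed members at 0 in one clone out of the 53. Members with a large change that were higher had a median of 6.19 FPKM in clone 595 and 1.76 FPKM in clone 28, and those that were lower 1.03 and 7.79 FPKM, in the same order. In sum, the higher members added up to 262 ± 12.8 FPKM in clone 595 and 67.0 ± 1.18 FPKM in clone 28, and the lower members to 56.4 ± 3.30 and 241 ± 3.76 FPKM (SD, n = 3 each).

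Some neighbours by number had a large change together. Identifiers with adjacent numbers were both large in 12 pairs, 9 with the same and 3 with opposite directions; the opposite pairs were 7157 with 7158, 7375 with 7376 and 7665 with 7666. Whether such pairs share sequence, so that reads could be counted to either one, was not tested. Among tested identifiers in order, 3 runs of 3 members had large changes in one direction, 7243 to 7245, 7394 to 7396 and 7544 to 7550. A further 7 runs were of 2 members. The rest of group 02 held 17 runs of 2 and 2 runs of 3 or more; a stretch chosen for many large changes will hold more of them side by side, so nothing is read from these counts.

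The edges of the stretch were not sharp at its start. The 389 identifiers before it, numbers 6758 to 7146, held large changes in 23 of 200 tested genes (11.5%), and the nearest one outside, 7136, was at 0.772 ± 0.118 FPKM in clone 595 and 3.26 ± 0.523 FPKM in clone 28 (SD, n = 3 each). The last identifier before the stretch, 7146, differed by -0.43 on the log2 scale and the first inside it, 7147, by -0.31. After the stretch the share was 5.13%, or 8 of 156, in the next 385 identifiers. Identifier 7863, the last inside, differed by -0.13, and 7864, the first outside, was listed at 0 in 5 of 6 libraries. The first large change after the end was 7902, at 0.540, 0.305 and 0.417 FPKM against 20.6, 16.8 and 19.9 FPKM. Only 8 of the 38 identifiers between the end and 7902 were tested, and 21 were at 0 in every library.

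Consecutive blocks of the same 717 running numbers were used to set the stretch beside other identifiers. The 4 such blocks that follow in group 02 had large changes in 5.56% to 6.28% of their tested genes. Over the 38 blocks in the other 7 identifier groups the share ran from 3.48% to 18.3%, with a median of 6.73%, and 1 block, in group 08, was at or above the 17.7% of the stretch. As windows of large changes chose the stretch, its place in this order is no test.

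**Figure D5:**
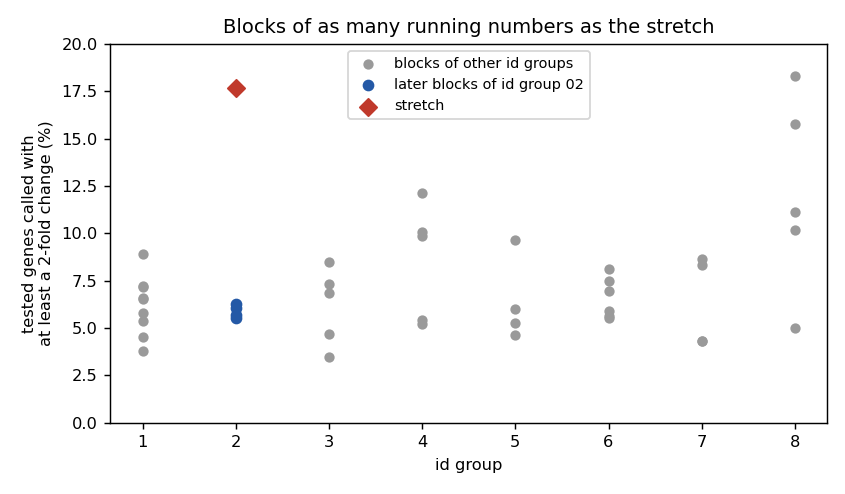
Share of tested genes with a call of at least 2-fold in consecutive blocks of 717 running numbers, by identifier group. The stretch (diamond) is at 17.7%, the 4 later blocks of group 02 are at 5.56% to 6.28%, and 1 block of group 08 reaches 18.3%.

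Agreement between libraries was described across the 300 tested members, which are not independent replicates. Libraries of the same clone had a Pearson's r of 0.974 to 0.986 in the stretch and 0.991 to 0.992 in the rest of group 02, over 6 pairs. Libraries of different clones had an r of 0.857 to 0.877 and 0.943 to 0.951, over 9 pairs, and this difference shares the contrast that chose the stretch. The median within-clone standard deviation on the log2(FPKM + 1) scale was 0.13 in the stretch and 0.13 in the rest. With a pseudocount of 0.1 the medians were 0.156 and 0.141, in the same order. The lower r within clones rested on 6 members with a within-clone standard deviation of at least 0.5: without them, an alternative chosen after seeing the data, it was 0.991 to 0.992, and between clones 0.873 to 0.881.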

How the data were processed

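The authors deposited 1 table of FPKM, per the file headers, with 1 column for each of the 6 libraries; all columns were used. Tools named in the submitters' processing notes are edgeR, GATK, HISAT2, Picard and SAMtools 0.1.18; what each did, the quantifier, the build and the annotation were not given in the sources used here. RNA was sequenced by Illumina's usual protocol, per the labels; strand is not stated, and genes that overlap, lie antisense or are near-identical copies may share reads. Summed FPKM was 624935 to 639355 per library; depth is unknown, so no counting interval is given.

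Genes averaging 1 FPKM or more were tested on log2(FPKM + 1) with limma 3.58.1 (R 4.3.3, intensity trend, two-sided, Benjamini-Hochberg over 18904 genes), checked on simulated data. The block of replicate numbers was an alternative, since same-numbered libraries did not deviate together (r of -0.068 to -0.027). The members and lists were chosen with earlier results of these data known. Members named are those at 0 in one clone, the 10 highest and 10 lowest changes among called, non-overlapping members with 5 FPKM or more in whichever clone was higher, runs of 3, the changes nearest each end and the 5 most abundant; others were named after their values were seen. Marker lists could not be applied without names. Alternatives were other pseudocounts, filters, scalings, thresholds, spans and bins, and each library left out.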

Additional observations from a re-analysis of the deposited data

How the results depend on the processing

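No large change of the stretch reversed under the alternatives that tested it. With a minimum mean of 5 FPKM, 179 members were tested, and the counts fell with them. Of these, 90 were called (32 higher, 58 lower) and 22 (12.3%) changed at least 2-fold (11 higher, 11 lower). The rest of group 02 then had 59 large changes (4.24%). Without a filter 11.0% of the members changed at least 2-fold, against 4.99% in the rest. A pseudocount of 0.1 gave 206 large changes (10.5%) in the rest of the group and 0.01 gave 214 (11.0%), and the stretch then stood at 24.3% and 25%. An adjusted p under 0.01 left 111 calls (37%) in the stretch and 526 (26.9%) in the rest. Requiring 5 FPKM of the other clone left 2 members at 0 in one clone, and counting 4-fold changes gave at most 4 in a bin, in 7147 to 7196, in place of the 11 large changes in 7347 to 7396; bins of 100 also moved the place, to 7147 to 7246, with 12. Over all identifiers above 0 the median level was 1.85 FPKM in the stretch and 4.62 FPKM in the rest. With a pseudocount of 0.1, chosen after seeing the data, the lowest r within clones was 0.957 and the highest between clones 0.80; without 6 variable members the former was 0.991. Without the 5 most abundant members the sums differed by 236 FPKM. The causes of these shifts were not tested. The replicate block gave 142 called members and 54 large changes; the numbers were not taken to pair the libraries. Leaving out a library gave 122 to 140 called members (43 to 48 higher, 79 to 95 lower), 46 to 53 large changes (20 to 24 higher, 25 to 33 lower), 15.5% to 17.7% of the tested members, and 6 to 8 members at 0 in one clone. Depth is unknown, so no detection limit can be set for low members.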

Other observations

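A few members varied widely between libraries of the same clone, a measure the choice of the stretch did not use. Member 7356 was at 0.202, 7.13 and 43.8 FPKM in clone 595 and at 0.789, 26.7 and 0.134 FPKM in clone 28, so each clone held both near-silent and well expressed libraries. Member 7177 was at 12.7, 0.694 and 8.89 FPKM in clone 595 and at 3.8, 7.89 and 35.7 FPKM in clone 28. Its near neighbour 7179 was at 41.1, 17.3 and 27.2 against 57.4, 27.2 and 111 FPKM. In both, library 2 of clone 595 was its lowest and library 1 its highest, and library 3 of clone 28 was the highest of that clone. Member 7400 was at 2.15, 2.68 and 0 against 2.20, 2.64 and 2.24 FPKM, a single library at 0. None of these was called. In all, 6 of 300 tested members (2%) had a within-clone standard deviation of at least 0.5 on the log2(FPKM + 1) scale, against 14 of 1953 (0.717%) in the rest of group 02 and 178 of 18904 (0.942%) of all tested genes. The 0.5 was set after the values were seen, and the shares were not tested.

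The 207 members below the filter were expressed at a median of 0.187 FPKM. The clones had no overlap between their libraries in 81 of them, of which 29 were higher in clone 595. In 42 every library of clone 595 was listed at 0 and in 28 every library of clone 28, but the highest single value among the 207 was 2.32 FPKM. The matching shares among other genes below the filter were not taken, so nothing is read from these counts.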
